A study of Homo sapiens with 24 samples.

Results

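Readthrough genes join 2 neighboring genes in 1 annotated transcript unit, named by the upstream and then the downstream gene. They were found in the count table as genes with a symbol of the form A-B in which both A and B were also symbols of the table. Symbols beginning with HLA- or MT- and antisense or divergent transcripts were left out. Of 60236 genes in the table, 126 met this definition, under 125 different symbols, because ARMCX5-GPRASP2 had 2 identifiers. A limit of 300 by mean level was set but never reached, so no measured value decided which genes were kept. The parents were 248 genes. In 6 of the 126 a parent was shared with another readthrough gene (MIA-RAB4B with RAB4B-EGLN2, EEF1E1-BLOC1S5 with BLOC1S5-TXNDC5, and the ARMCX5-GPRASP2 pair), so these are not independent of each other.

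The samples were 24 RNA-seq libraries of 2 cell lines, HEK293T (a human embryonic kidney line) and A549 (a human lung adenocarcinoma line), with 3 replicates of each of 4 plasmids per line. All cells were collected 48 h after lipid transfection. Of the plasmids, 2 expressed snaR-A (a small noncoding RNA) or a scrambled control sequence, both from a U6 promoter. The other 2 expressed the splicing factor SF3B2 or eGFP, both with a C-terminal tag and from a pcDNA3.1 vector. The eGFP and scramble plasmids therefore differed in vector and promoter as well as insert. No untransfected group was used here. Estimated counts summed to between 195186194 and 260878268 per library, and levels are given in CPM, the count scaled by this total. Where none was counted, up to 3 could be missed, and 3 counts are 0.0115 to 0.0154 CPM at these depths.

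In readthrough transcription, RNA polymerase II passes the polyadenylation site of one gene and continues into the next gene on the same strand. Splicing can then remove the region between them and join an exon of the upstream parent to an exon of the downstream parent. The product may code for a fusion of both proteins, for one of them, or for none, and the fraction made depends on cleavage, termination and splice site choice. Such RNAs are usually much rarer than the parent mRNAs.

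The joined exons define these transcripts. The sequences below are shown because the results turn on these genes. Each is 30 bases of the spliced junction, 5′ to 3′, from GENCODE 44 on hg38, with the last bases of the upstream parent's exon in lower case and the first bases of the downstream parent's exon in capitals.
HNRNPUL2-BSCL2: caatacaatcgggatGGACCCTCCATTTTC
INO80B-WBP1: agactgcggcgaccaCTTCGAGAGCTGTGC
SENP3-EIF4A1: ctgcaaactcactgtCCAGGGGAATCCTCC
ARHGAP11A-SCG5: caaaaaagtttgcagGTTGACAATGGTCTC
FPGT-TNNI3K: tattaattcactctgATGAATGGAAGAAAA
STX16-NPEPL1: aaacagcttcacaagGCTGGTTATGAAGAA
CHURC1-FNTB: tagttacctatgatcGCAAAAGTAGAAGAA
NME1-NME2: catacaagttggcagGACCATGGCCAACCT
SLX1B-SULT1A4: tcagaattagaagagGAACATGGAGCTGAT
The exon edges of the HNRNPUL2-BSCL2 junction were at 62715500 and 62707324 on the minus strand of chromosome 11, with an intron of 8175 bases between them. Those of SENP3-EIF4A1 were at 7571479 and 7572284 on the plus strand of chromosome 17, only 804 bases of intron apart. Those of STX16-NPEPL1 were at 58673711 and 58691724 on the plus strand of chromosome 20. The junction of SLX1B-SULT1A4 had the same 30 bases as that of SLX1A-SULT1A3, its duplicate elsewhere on chromosome 16, so these 30 bases do not tell the pair apart.

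In the annotation, 114 of the 126 genes were protein coding and 12 were long noncoding RNAs. For 125, the parents lay on the same strand of one chromosome with A upstream, and the exception, BORCS7-ASMT, was matched to an ASMT on another chromosome. A transcript with a direct junction between an exon of each parent was annotated for 112. The median intron at this junction was 15848 bases. Parents overlapped at 11 of these 125 loci, and over the other loci the median distance between them was 6651 bases. Of the 423 annotated readthrough transcripts, 342 started within 500 bases of a start of A and 18 within 500 bases of a start of B.

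The sequence itself limited what could be measured. Of all 31-base words in a readthrough gene's transcripts, a median of 90.7% also occurred in a parent and 7.34% occurred in no other gene. HNRNPUL2-BSCL2 had 30 words of its own, 0.755% of its sequence. Reads from the shared words had to be divided between a readthrough gene and its parents when the counts were estimated, and the part of that division in the results was not tested. In 12 genes, more than 50% of the words occurred in genes other than the parents, among them BOLA2-SMG1P6, PDXDC2P-NPIPB14P, SLX1B-SULT1A4, TIMM23B-AGAP6 and ZNF8-ERVK3-1, and their values are uncertain for that reason.

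Several libraries stood apart. HEK293T eGFP replicate 3 held all 10 genes of a list of A549 markers above 1 CPM, summing to 998 CPM and led by ALDH1A1 at 511 CPM, whereas replicates 1 and 2 summed to 19.3 and 18.6 CPM and A549 libraries to at least 17674 CPM. HEK293T SF3B2 replicate 3 summed to 46.8 CPM with 8 of 10 markers above 1 CPM, against 22.6 and 24.5 CPM in replicates 1 and 2. SF3B2 itself was at 7684 CPM in A549 scramble replicate 3 and at 298 and 280 CPM in the other A549 scramble libraries. For A549 snaR-A replicate 3, some labels named the other line. This library was grouped with A549, and its A549 markers summed to 19621 CPM. Of 8 HEK293T markers, all were above 1 CPM in the HEK293T libraries and 5 in the A549 libraries. Their sum was 882 to 940 CPM in HEK293T scramble, led by NEFM, a neurofilament gene, at 409 to 444 CPM, and 563 to 711 CPM in the other HEK293T libraries. The scramble group stood apart on these markers too, and the part of this in the comparisons with scramble was not tested. LIN28B was between 162 and 182 CPM in HEK293T and between 17.2 and 22.1 CPM in A549, and CDKN2A, which A549 is known to lack, was at most 0.0411 CPM there. Counts of called genes are also given without these libraries, and named genes that lost their call without one of them are named.

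Most readthrough genes were rare. Mean levels were at least 10 CPM for 18, between 1 and 10 CPM for 40 and under 1 CPM for 68, with a median of 0.888 CPM. INS-IGF2, EPPIN-WFDC6 and GIMAP1-GIMAP5 (named after their values were seen) had no counts in any library. Per kilobase of annotated length, the median level was 0.295 CPM, against 5.95 CPM for A and 1.96 CPM for B, and 75 of the 126 were below both parents. The share of the locus, that is the readthrough counts as a percentage of the sum of readthrough, A and B counts, had a median of 2.89% and exceeded 50% for 6 genes.

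The 10 most abundant genes held 56.7% of all readthrough counts. HNRNPUL2-BSCL2, which joins an RNA-binding nuclear protein gene to the seipin gene, averaged 68.8 CPM. ABCF2-H2BK1, in which an ABC-family ATPase gene runs into a histone gene, averaged 64.4 CPM. ANKHD1-EIF4EBP3, which joins an ankyrin repeat protein gene to the gene of a translation inhibitor related to 4E-BP1, averaged 49.5 CPM. The rest of the 10 were ARPIN-AP3S2, BOLA2-SMG1P6, RPL17-C18orf32, FMC1-LUC7L2, PDXDC2P-NPIPB14P, ISY1-RAB43 and SLX1B-SULT1A4, from 27.7 down to 16.0 CPM.

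Levels below are CPM divided by the TMM factor of the library, and fold changes are from edgeR's quasi-likelihood test with Benjamini-Hochberg adjustment over all genes tested. Errors of log2 fold changes are standard errors. A gene was called at an adjusted p under 0.05. Scaled this way, the readthrough genes together reached 498 ± 6.05 (SD, n = 3) in HEK293T scramble, 583 ± 12.1 in snaR-A, 602 ± 40.3 in SF3B2 and 638 ± 20.5 in eGFP. In A549, the sums were 580 ± 8.68 in scramble, 551 ± 18.0 in snaR-A, 591 ± 12.5 in SF3B2 and 570 ± 46.3 in eGFP. None of the 3 HEK293T scramble libraries reached the lowest library of another HEK293T group. The order between lines depended on the scaling: with library size alone, HEK293T scramble was between 567 and 574 CPM and all A549 libraries between 461 and 518 CPM.

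**Figure D1:**
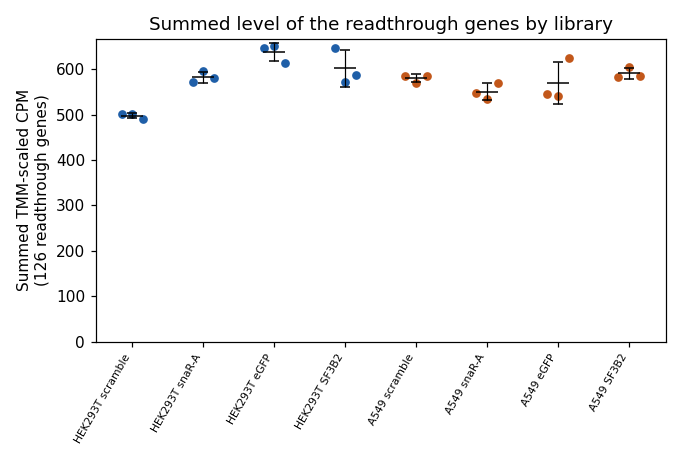
Summed TMM-scaled CPM of the 126 readthrough genes (vertical axis) in each library (points; blue for HEK293T, orange for A549), with the mean and SD of the 3 replicates of each of 8 groups in black. The HEK293T scramble libraries lie between 491 and 502, below the other HEK293T libraries.

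Expression of readthrough genes was first compared between the lines over all 12 libraries of each. Of 110 genes tested (16 were tested in no comparison), 57 were higher and 29 lower in HEK293T, that is 51.8% and 26.4%, against 42.9% of all genes tested higher and 42.7% lower. The median log2 fold change was 0.41, against 0.01 for all genes. The upstream parents were higher in 45 and lower in 49 of 104 tested, and the downstream parents higher in 52 and lower in 45 of 106. Scaling by library size alone moved all fold changes by 0.46 and gave 75 higher and 23 lower, against 58.0% and 29.3% of all genes. The distance of the readthrough median from the median of all genes was 0.40 with either scaling. Without the 3 libraries that stood apart by marker genes or SF3B2, 54 were higher and 28 lower, against 42.4% and 42.1%. Of 38 named calls, SLX1B-SULT1A4 or PPAN-P2RY11 or both were lost when any 1 of the 4 libraries described above was left out, and no other.

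**Figure D2:**
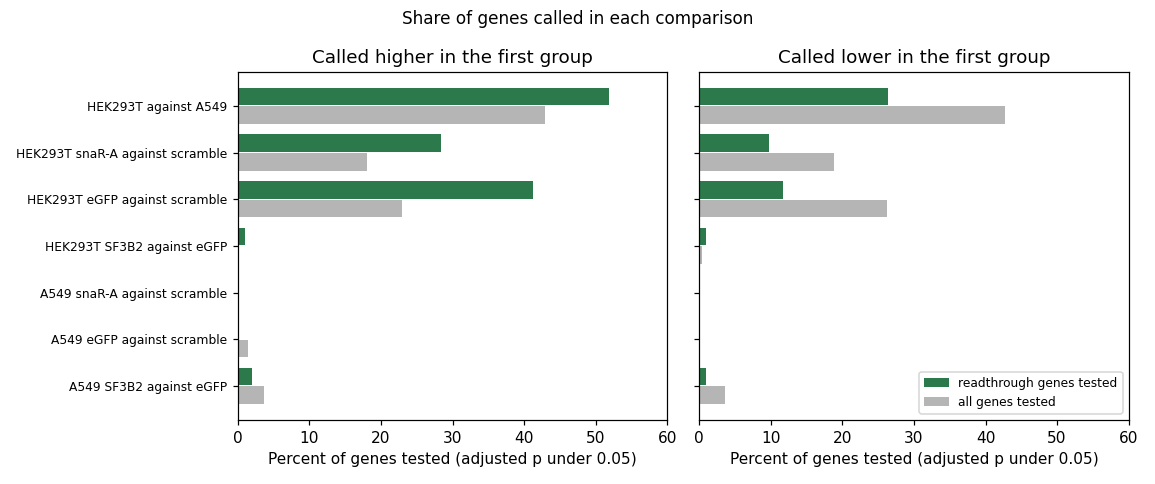
Percent of genes tested (horizontal axes) called higher or lower in the first group of each comparison at an adjusted p under 0.05, for readthrough genes (green) and all genes tested (gray). In HEK293T, the green bar is longer than the gray bar among genes higher with snaR-A or eGFP than with scramble and shorter among genes lower.

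Among the largest differences between lines were loci with little or no readthrough RNA counted in A549. STON1-GTF2A1L, which joins an endocytic adaptor gene to a testis-enriched general transcription factor gene, was at 1.08, 1.79 and 2.01 (lowest, median and highest of 12) in HEK293T, was listed at 0 in 8 A549 libraries and reached at most 0.0331 there. Its upstream parent STON1 was lower in A549 but still present, at 2.47, 2.97 and 3.14 against 15.3, 19.9 and 31.4 in HEK293T, and GTF2A1L was listed at 0 in 11 A549 libraries. PPT2-EGFL8, at a lysosomal thioesterase gene, was between 1.74 and 3.48 in HEK293T and between 0.0313 and 0.207 in A549. Its parent PPT2 was at 0 in 3 A549 libraries and at most 0.276 in the others. Each parent was taken as a single identifier, and whether reads of this locus were assigned to another identifier was not tested. At both loci the readthrough gene and both parents were higher in HEK293T, with differences of unequal size.

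At other loci the readthrough gene and its parents differed in opposite directions. STX16-NPEPL1, from a Golgi syntaxin gene into an aminopeptidase gene, was at 0.882, 1.82 and 3.12 (lowest, median and highest) in HEK293T and at 0.297, 0.464 and 0.564 in A549. No HEK293T library overlapped an A549 library. The log2 fold change was 2.01 ± 0.12 (adjusted p = 1.9e-12), while NPEPL1 had -2.91. STX16 had -0.08 with TMM and 0.38 when scaled by library size alone. The share of the STX16-NPEPL1 locus was 1.35% ± 0.39 (SD, n = 12) in HEK293T and 0.273% ± 0.062 in A549.

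CHURC1-FNTB, which ends in the gene of the farnesyltransferase beta subunit, was at 1.03, 2.62 and 3.57 in HEK293T and at 0.438, 0.779 and 1.08 in A549. These ranges overlapped only at their edges. Its log2 fold change was 1.65 ± 0.14 (adjusted p = 8.7e-10), against -0.57 for CHURC1 and -1.25 for FNTB. ARPC4-TTLL3, from an Arp2/3 actin-nucleating subunit gene into a tubulin glycylase gene, had 0.98 ± 0.06, against -1.86 for ARPC4 and 0.92 for TTLL3. Here the readthrough gene differed in the direction of the downstream parent.

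NME1-NME2 joins the genes of 2 nucleoside diphosphate kinases. It was at 4.79, 6.44 and 7.93 in HEK293T and at 3.31, 3.76 and 4.92 in A549, with a log2 fold change of 0.72 ± 0.06 (adjusted p = 4.6e-10), against -0.64 for NME1 and -0.60 for NME2. Only 24 of its words occurred in no other gene. In the other direction, HSPE1-MOB4, which begins in the gene of the mitochondrial chaperonin HSP10, had -1.58 ± 0.10, beyond the -0.60 of HSPE1. RPL17-C18orf32, which begins in a ribosomal protein gene, had -1.22 ± 0.04, against 0.13 for RPL17 and -1.52 for C18orf32. The fold changes of several abundant members depended on the scaling. HNRNPUL2-BSCL2 had 0.06 with TMM (not called) and 0.52 with library size alone (called), and ANKHD1-EIF4EBP3 had -0.02 (not called) and 0.45 (called). ABCF2-H2BK1 had -0.44 with TMM and 0.023 (adjusted p = 0.439, not called) with library size alone. ARPIN-AP3S2 had -0.20 and 0.27, and both passed. SLX1B-SULT1A4 had -0.14 and 0.33, and its call with TMM was lost in 13 of 31 alternatives.

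In MSANTD3-TMEFF1 the parents differed strongly and in opposite directions. MSANTD3 had a log2 fold change of -1.76 and TMEFF1, a transmembrane protein gene, 4.39. The readthrough gene was at 12.2, 16.0 and 19.9 in HEK293T and at 13.6, 14.6 and 19.1 in A549, with 0.03 ± 0.05 (adjusted p = 0.62). With TMM scaling its levels in the lines overlapped almost entirely, whereas with library size alone it was higher in HEK293T, at 0.50 (adjusted p = 1.4e-07).

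At further loci the readthrough gene differed in the direction of its downstream parent. GET1-SH3BGR, from a gene for tail-anchored protein insertion, was at 1.05, 1.48 and 3.28 in HEK293T and at 0.0836, 0.253 and 0.492 in A549 (2.67 ± 0.15), while both parents were higher in HEK293T by less (0.43 and 1.56). SYS1-DBNDD2, from a Golgi membrane protein gene, was at 0.619, 1.38 and 2.24 in HEK293T and at 0.179, 0.353 and 0.595 in A549 (1.79 ± 0.16), with -0.34 for SYS1 and 1.98 for DBNDD2. ZNF8-ERVK3-1, from a zinc finger gene into an endogenous retrovirus locus, was at 1.69, 1.99 and 2.57 in HEK293T and at 4.19, 5.36 and 5.65 in A549 (-1.36 ± 0.04, uncertain because most of its words occur in other genes), with 0.55 for ZNF8 and -1.38 for ERVK3-1. In these 3 the lines did not overlap. SYS1 had 0.13 when scaled by library size alone.

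At other loci all 3 genes were lower in HEK293T. TEN1-CDK3, which joins a telomere maintenance gene to a cyclin-dependent kinase gene, had -1.23 ± 0.08, with -1.08 for TEN1 and -1.16 for CDK3, and its share of the locus was 30.0% in HEK293T and 31.9% in A549. TNFSF12-TNFSF13, which joins the genes of the ligands TWEAK and APRIL, was listed at 0 in 5 HEK293T libraries and reached 0.113 there, against 0.141 to 0.636 in A549. Its parents had -3.70 and -3.93. RNF103-CHMP3, which ends in the gene of an ESCRT-III subunit, had -1.49 ± 0.16, against -1.40 and -1.74 for its parents.

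BCL2L2-PABPN1, from an apoptosis inhibitor gene into that of a nuclear poly(A)-binding protein, had 0.41 ± 0.14 (adjusted p = 0.011), against -0.74 for BCL2L2. A single library stood out, HEK293T SF3B2 replicate 1 at 28.1, with the other replicates of that group at 9.44 and 9.16. Without it the log2 fold change was 0.22.

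The snaR-A plasmid was compared with scramble in HEK293T. Of 102 readthrough genes tested, 29 were higher (28.4%) and 10 lower (9.80%), against 18.1% of all genes tested higher and 18.8% lower. The median log2 fold change was 0.28, against -0.01 for all genes, -0.02 for A and 0.02 for B. Of the 29 that were higher, the upstream parent was called higher for 10 and lower for 4, and the downstream parent higher for 8 and lower for 1. Neither parent was called higher for 13, with a parent that was not tested counted as not called. Among all upstream parents tested, 21 were higher and 24 lower of 94, and among downstream parents 22 and 19 of 99. Scaled by library size alone, 38 were higher and 8 lower, against 27.2% and 10.2% of all genes. Without snaR-A replicate 2, 21 were higher and 8 lower, against 11.3% and 12.1%. When a library was left out, the share of all genes ranged from 11.3% to 17.3% higher and from 12.1% to 19.3% lower. The mean share of the locus was higher with snaR-A for 68 of 102.

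The same comparison for the eGFP plasmid, which shares the scramble libraries, gave 42 higher (41.2%) and 12 lower (11.8%) of 102, against 23.0% of all genes higher and 26.2% lower. The median was 0.33, against -0.01 for all genes, -0.07 for A and 0.04 for B. Of the 42, the upstream parent was called higher for 13 and lower for 6, and the downstream parent higher for 19 and lower for 8. Neither parent was called higher for 15, counted in the same way. Among all upstream parents tested, 19 were higher and 33 lower of 94, and among downstream parents 34 and 27 of 97. The mean share was higher for 77 of 102. Scaled by library size alone, 52 were higher and 8 lower, against 29.8% and 18.8% of all genes. Without HEK293T eGFP replicate 3, the counts were 42 and 11, beside 5141 and 5808 of 23259 genes in all, and 27 of 30 named calls were kept. The calls of ARPC4-TTLL3, SLX1B-SULT1A4 and TMED7-TICAM2 were lost.

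**Figure D3:**
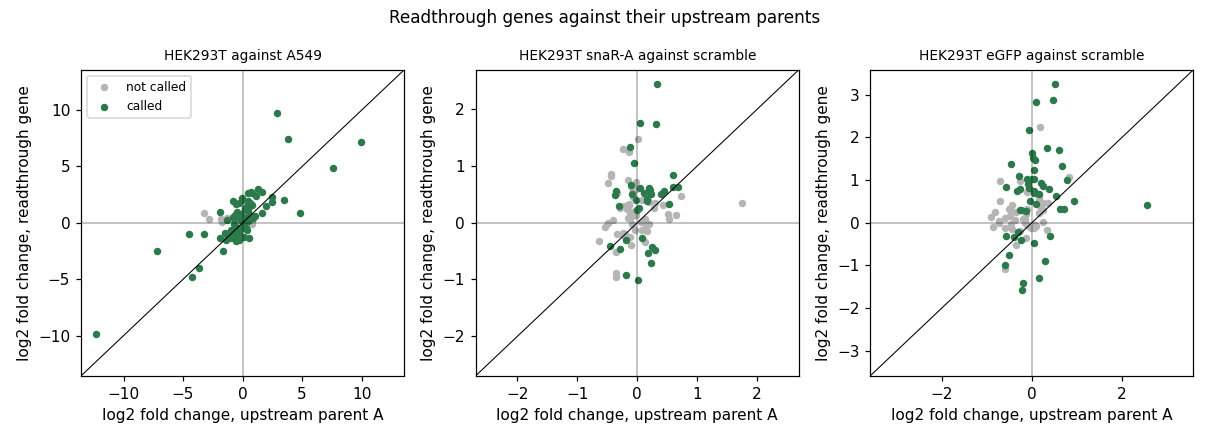
Log2 fold change of each tested readthrough gene (vertical axes) against that of its upstream parent (horizontal axes) in 3 comparisons, with called genes in green and the line of equal change in black. In the snaR-A and eGFP panels, most called points lie above 0 on the vertical axis while the parent medians are -0.02 and -0.07.

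HNRNPUL2-BSCL2 was at 49.7, 47.5 and 49.6 in HEK293T scramble, at 63.5, 73.7 and 68.9 with snaR-A and at 83.5, 83.6 and 77.4 with eGFP. The lowest library with either plasmid was above the highest scramble library. The log2 fold changes were 0.50 ± 0.06 (adjusted p = 0.00022) and 0.74 ± 0.05 (adjusted p = 1.7e-05). HNRNPUL2 fell, with -0.37 and -0.33, and BSCL2 had 0.29 (not called) and 0.48 (called). For shares within a line no test is given, since an exact two-sided permutation test of 3 libraries against 3 cannot go below 0.1. The share of the locus was 22.7% ± 0.60 (SD, n = 3) with scramble, 34.7% ± 2.3 with snaR-A and 37.7% ± 1.6 with eGFP.

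ANKHD1-EIF4EBP3 was at 30.4, 33.3 and 34.6 with scramble, at 51.2, 49.0 and 49.9 with snaR-A and at 64.2, 68.7 and 53.6 with eGFP. Again no library overlapped scramble. Fold changes were 0.62 ± 0.05 and 0.92 ± 0.09, against 0.05 and 0.20 for ANKHD1. ABCF2-H2BK1 rose by 0.32 and 0.33 (log2), but ABCF2 by more, 0.53 and 0.72, so its share of the locus was 42.5% ± 1.7 with scramble, 39.2% ± 1.2 with snaR-A and 36.2% ± 1.4 with eGFP. Here the readthrough gene rose while its share did not.

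SENP3-EIF4A1 runs from a SUMO protease gene into the gene of the RNA helicase eIF4A1. It was at 9.67, 8.31 and 7.73 with scramble, at 11.8, 13.2 and 11.8 with snaR-A and at 18.1, 16.9 and 17.1 with eGFP. The 3 groups did not overlap. Fold changes were 0.53 ± 0.09 (adjusted p = 0.0014) and 1.02 ± 0.09 (adjusted p = 4.2e-05), while SENP3 had 0.11 and 0.05 and EIF4A1 -0.15 and -0.16, none of them called.

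ARHGAP11A-SCG5, which ends in a secretogranin gene, was at 0.748, 0.666 and 0.752 with scramble, at 0.975, 1.31 and 1.13 with snaR-A and at 1.99, 2.13 and 2.57 with eGFP. The groups were again separate. Fold changes were 0.66 ± 0.15 and 1.63 ± 0.14, against -0.11 and -0.01 for ARHGAP11A. In A549 this gene was between 1.82 and 2.44 in every library, close to the HEK293T eGFP level.

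INO80B-WBP1, which begins in a chromatin remodeling subunit gene, was at 0.160, 0.133 and 0.309 with scramble, at 0.521, 0.544 and 0.950 with snaR-A and at 1.28, 2.002 and 0.944 with eGFP. These are low levels, but every library with snaR-A or eGFP was above every scramble library. Fold changes were 1.76 ± 0.37 (adjusted p = 0.0075) and 2.82 ± 0.41 (adjusted p = 0.0015), against 0.05 and 0.10 for INO80B. SPECC1L-ADORA2A, which ends at an adenosine receptor gene, rose by 1.74 in both comparisons. Its eGFP libraries were at 1.67, 1.67 and 3.59, and the call was lost when scramble replicate 1 or 3 was left out or without a low-count filter.

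TIMM23B-AGAP6, at a mitochondrial import gene, was at 5.20, 4.90 and 5.11 with scramble, at 7.32, 7.62 and 8.56 with snaR-A and at 12.7, 13.9 and 11.5 with eGFP. The 3 groups were separate, with fold changes of 0.64 ± 0.08 and 1.33 ± 0.09, and TIMM23B rose as well, by 0.60 and 0.66. SYS1-DBNDD2 was at 0.619, 0.843 and 0.628 with scramble, at 1.34, 1.61 and 1.35 with snaR-A and at 1.42, 1.41 and 1.41 with eGFP. Its fold changes were 1.05 ± 0.16 and 1.02 ± 0.16, and neither parent was called in either comparison. POC1B-GALNT4, from a centriolar protein gene into a glycosyltransferase gene, was at 3.54, 3.49 and 3.33 with scramble, at 3.83, 5.91 and 5.50 with snaR-A and at 5.86, 6.09 and 6.60 with eGFP. It rose by 0.57 ± 0.15 and 0.84 ± 0.09 while POC1B fell, with -0.35 and -0.57, and its snaR-A call was lost in 4 of 13 alternatives (adjusted p up to 0.0642).

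Further loci differed in whether the readthrough gene moved with its parents. RBM14-RBM4, which joins a pair of RNA-binding protein genes, rose by 0.56 ± 0.10 and 0.62 ± 0.12, with RBM14 at 0.45 and 0.53 and RBM4 at 0.40 and 0.62, and its share of the locus was 2.56% with scramble, 2.82% with snaR-A and 2.63% with eGFP. TMED7-TICAM2, which ends in the gene of an adaptor of Toll-like receptor signaling, had -0.31 ± 0.06 with snaR-A and -0.22 ± 0.07 with eGFP, beside -0.19 and -0.32 for TMED7, and its eGFP call was lost in 6 of 13 alternatives (adjusted p up to 0.216). FMC1-LUC7L2 was not called (0.05 ± 0.06 and 0.05 ± 0.06), although FMC1 fell, with -0.41 and -0.73. PPAN-P2RY11, at a ribosome biogenesis gene, rose with eGFP by 0.80 ± 0.18 and was not called with snaR-A (0.37 ± 0.34).

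Fewer genes fell. FPGT-TNNI3K, which ends in a cardiac kinase gene, was at 3.31, 2.39 and 2.35 with scramble, at 1.40, 1.12 and 1.46 with snaR-A and at 1.21, 0.706 and 0.804 with eGFP. All libraries with either plasmid were below scramble. Fold changes were -1.01 ± 0.16 and -1.57 ± 0.23, against 0.01 and -0.22 for FPGT. The downstream parent TNNI3K fell as well, with -0.84 and -1.96. ZNF286A-TBC1D26 fell by 0.91 and 1.41, beside -1.33 and -1.84 for TBC1D26. ZHX1-C8orf76 fell by 0.54 and 0.89, and DNAJC25-GNG10, which ends in a G protein gamma subunit gene, fell by 0.48 and 0.30, the second call being lost in 3 of 13 alternatives (adjusted p up to 0.0915). DNAJC25 itself rose by 0.29 and 0.41.

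**Figure D4:**
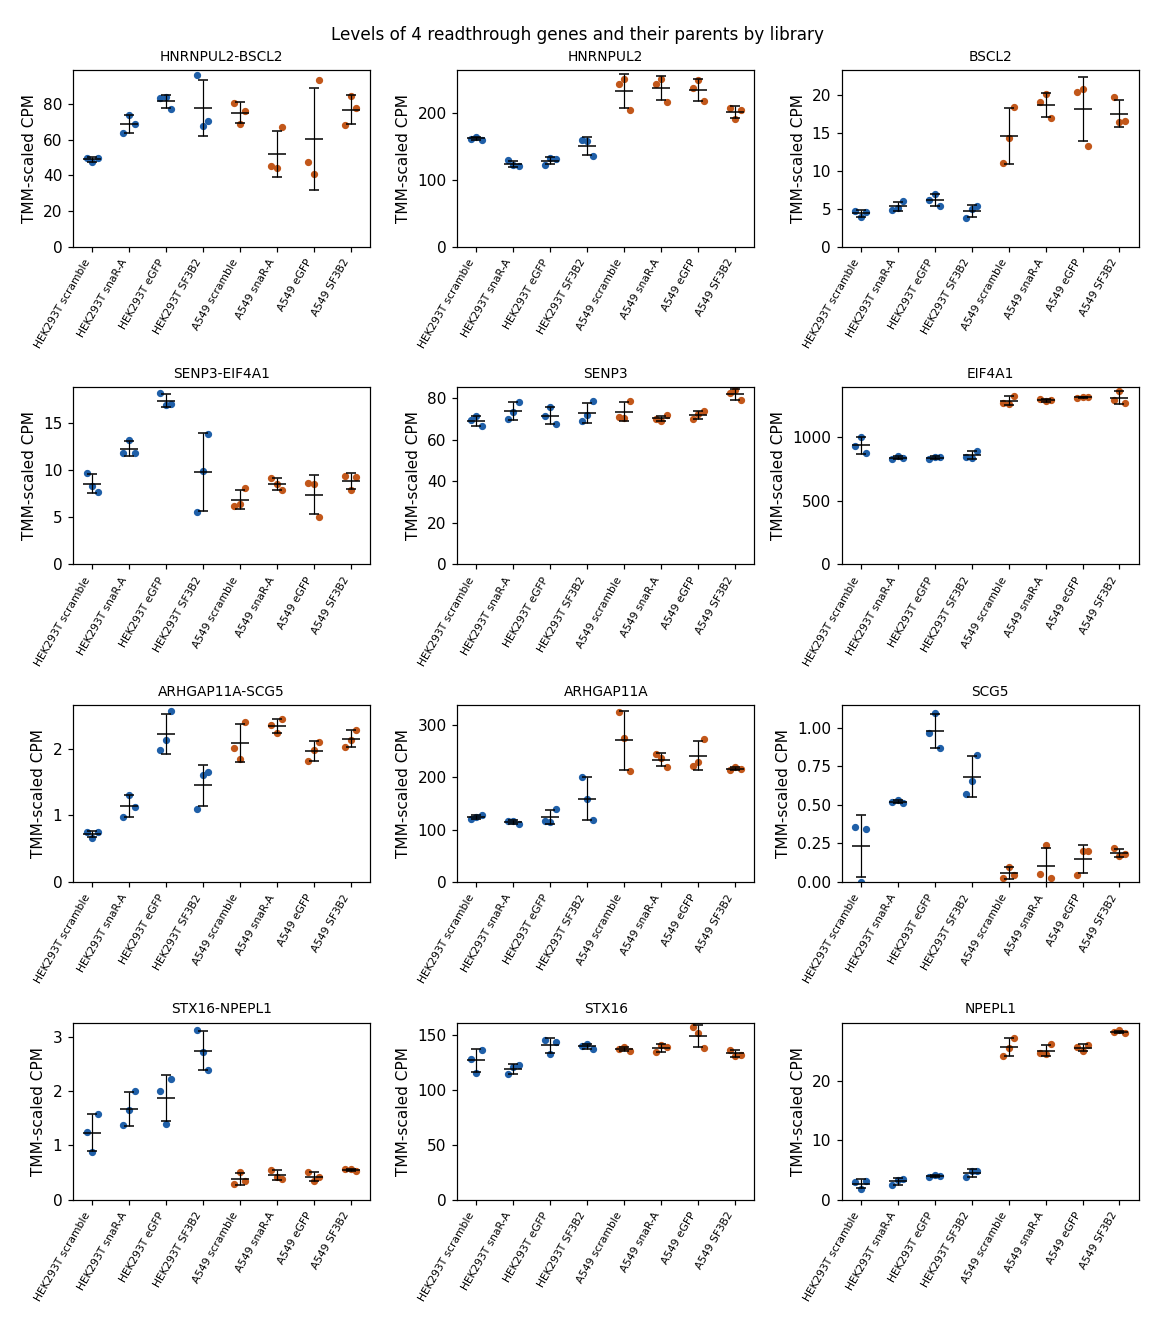
TMM-scaled CPM (vertical axes) of 4 readthrough genes (left) and their upstream (middle) and downstream (right) parents in each library (points; blue for HEK293T, orange for A549), with the mean and SD of 3 replicates in black. SENP3-EIF4A1 and ARHGAP11A-SCG5 are lowest in HEK293T scramble among the snaR-A, eGFP and scramble groups of HEK293T, and STX16-NPEPL1 is higher in all HEK293T libraries than in any A549 library.

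The members were also grouped by fixed patterns in the symbols of their parents, not by a list of functions. A parent of a group with another kind of symbol was therefore missed, as HSPE1 was for the mitochondrial group. Some members fell in more than 1 group. Over all genes tested, 18.1% rose and 18.8% fell with snaR-A and 23.0% rose and 26.2% fell with eGFP, and the same counts over all readthrough genes are given above. Of 9 with a parent in RNA processing, 3 of 8 tested rose and 1 fell with snaR-A, and 7 of 9 rose and 1 fell with eGFP, with medians of 0.50 and 0.80. Without HEK293T eGFP replicate 3, 6 of 9 rose and 1 fell. The member that fell was BCL2L2-PABPN1, at -0.47 ± 0.07 and -0.33 ± 0.08, the second not called with library size alone (adjusted p = 0.0503). RPL36A-HNRNPH2 rose with eGFP by 1.38 ± 0.20 and was at 1.30 ± 0.39 (adjusted p = 0.058) with snaR-A. Of 6 with a mitochondrial protein gene as a parent, 3 rose with snaR-A and 1 with eGFP, or 3 with eGFP when HEK293T eGFP replicate 3 was left out. Of 7 zinc finger members tested, 2 rose and 2 fell with snaR-A, and 3 rose and 2 fell with eGFP. Of the members with an immune gene, none rose and 1 of 6 fell with snaR-A, and 1 rose and 1 fell of 5 with eGFP, or 1 rose and none fell of 6 without that library. Of 3 with a ribosomal protein gene, none rose and 1 fell with snaR-A, and 1 rose (RPL36A-HNRNPH2, also in the RNA processing group) and 1 fell with eGFP. The one that fell was RPL17-C18orf32, with -0.41 for snaR-A and -0.31 for eGFP, beside -0.46 and -0.58 for RPL17.

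Genes of 3′ end formation and termination were examined as a fixed list of 30. Each symbol was taken as a single identifier, and CPSF1 was tested in no comparison. Between the lines, 11 of 29 tested were higher and 13 lower in HEK293T, beside 42.9% and 42.7% of all genes. PPP1R10 was among the 29, but its log2 fold change had a standard error of 76060, so its difference was not measured. XRN2 had -1.26 ± 0.02. With SF3B2 against eGFP in A549, 2 of 28 were higher and 0 lower, beside 3.61% and 3.64% of all genes. With SF3B2 in HEK293T, and with snaR-A or eGFP against scramble in A549, 0 of 28 were called. With snaR-A in HEK293T, 8 of 28 tested were higher and 1 was lower, with a median of 0.00, beside 18.1% higher and 18.8% lower of all genes tested. With eGFP, 10 were higher and 3 lower, with a median of -0.01, beside 23.0% and 26.2% of all genes. Without HEK293T eGFP replicate 3 the counts were 8 and 3. INTS6, an Integrator subunit, rose by 0.62 ± 0.05 and 1.03 ± 0.05. CSTF3, a subunit of the cleavage stimulation factor, fell by 0.43 and 0.48. PCF11, which promotes termination, rose by 0.33 ± 0.07 with eGFP and was not called with snaR-A (-0.002 ± 0.07, adjusted p = 0.985).

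SF3B2 was compared with eGFP within each line. In HEK293T, 1 of 104 readthrough genes was higher and 1 lower, against 0.0884% of all genes higher and 0.358% lower. GET1-SH3BGR was at 1.42, 1.57 and 1.48 with eGFP and at 3.28, 2.93 and 2.59 with SF3B2 (log2 fold change 0.96 ± 0.13, adjusted p = 0.038). TIMM23B-AGAP6 was at 12.7, 13.9 and 11.5 with eGFP and at 8.55, 8.56 and 7.77 with SF3B2 (-0.63 ± 0.10, adjusted p = 0.049). The call of GET1-SH3BGR was lost in 6 of 14 alternatives (adjusted p up to 0.208) and that of TIMM23B-AGAP6 in 7 of 14 (up to 0.241). Neither group pair overlapped. Without SF3B2 replicate 3, 4 were higher and 14 lower, against 5.84% and 5.69% of all genes in that fit, and leaving out each of the other 5 libraries gave 0 and 0, in fits that called at most 12 genes higher and 40 lower of all genes. Without both SF3B2 replicate 3 and eGFP replicate 3, 3 were higher and 11 lower, against 4.36% and 5.28%.

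In A549, no readthrough gene was called with snaR-A against scramble (98 tested) or with eGFP against scramble (97 tested) by edgeR. For snaR-A, 0.0138% of all genes were higher and 0.0138% lower. For eGFP, 1.50% of all genes were higher and 0.0417% lower. Before adjustment, p was under 0.05 for 7 readthrough genes and 1326 of 21662 genes in all with snaR-A, and for 5 readthrough genes and 1428 of 21578 in all with eGFP. DESeq2 also called 0 in both. Without scramble replicate 3, in which SF3B2 RNA was raised, 1 readthrough gene was higher with snaR-A and none was called with eGFP. Calls over all genes rose to 0.695% higher and 1.39% lower for snaR-A without that library, so the low count of the full comparison depended on it. Without snaR-A replicate 3, whose labels disagree, none was called, and without eGFP replicate 3, 1 was lower with eGFP.

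With SF3B2 against eGFP in A549, 2 of 97 were higher and 1 lower, against 3.61% of all genes higher and 3.64% lower. MSANTD3-TMEFF1 was at 14.6, 14.6 and 13.6 with eGFP and at 19.1, 18.4 and 18.1 with SF3B2 (0.39 ± 0.05, adjusted p = 0.0043). ATP5MF-PTCD1, which begins in an ATP synthase subunit gene, rose by 0.31 ± 0.07 (adjusted p = 0.049), a call that was lost in 10 of 13 alternatives (adjusted p up to 0.186). COMMD3-BMI1, which ends in a Polycomb gene, was at 2.31, 2.41 and 2.75 with eGFP and at 1.56, 1.21 and 0.968 with SF3B2 (-0.99 ± 0.18, adjusted p = 0.018). Its call was lost in 3 of 13 alternatives (adjusted p up to 0.0951). No parent of these 3 was called. Without eGFP replicate 3, 6 were higher and 3 lower, against 8.41% and 7.47% of all genes in that fit. Without eGFP replicate 1, SF3B2 replicate 2 or SF3B2 replicate 3, 1 was higher, against 1.66%, 0.504% and 0.803% of all genes. Without eGFP replicate 2, SF3B2 replicate 2 or SF3B2 replicate 3, none was lower, against 1.68%, 1.36% and 1.54%. When a library was left out, the share of all genes ranged from 0.504% to 8.41% higher and from 1.36% to 7.47% lower.

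Whether plasmid effects differed between lines was tested as an interaction. For snaR-A, the effect was higher in HEK293T for 11 and lower for 3 of 108 readthrough genes, against 6.69% and 4.84% of all genes. Without A549 scramble replicate 3 the counts were 11 and 7 (8.04% and 8.90% of all genes), and without A549 snaR-A replicate 3 they were 6 and 5 (4.24% and 4.80%). For eGFP, it was higher for 18 and lower for 7 of 109, against 10.7% and 15.7%. Without A549 scramble replicate 3 they were 19 and 8 (12.1% and 14.4% of all genes), and without HEK293T eGFP replicate 3 they were 16 and 6 (9.49% and 16.0%). Scaling by library size alone gave 22 and 2 (14.5% and 9.03%). For SF3B2, it was higher for 1 and lower for 5 of 110, against 3.70% and 2.78%, for 3 and 18 without HEK293T SF3B2 replicate 3 (9.24% and 8.91% of all genes), and for 0 and 5 without HEK293T eGFP replicate 3 (4.21% and 2.90%).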

How the data were processed

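Poly(A)-selected, rRNA-depleted RNA of 24 libraries was sequenced. The authors trimmed reads with Trim Galore and quantified them with Salmon (hg38 per the labels), and deposited estimated counts per gene, which need not be whole. The division of reads between overlapping transcripts was therefore fixed before deposit. Values were rounded.

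Groups were tested with edgeR 4.0.16 (R 4.3.3): filterByExpr, TMM, quasi-likelihood F-test, Benjamini-Hochberg adjustment over all genes. The line comparison used 24 libraries, the others 6, the interactions 12. Replicates are stated to be biological. The fit was also run on simulated data, and the outcome is not given here. No 2 replicates were copies: the variance within pairs of a group was 22.8 times that of Poisson counts or more. Symbols were matched for 54903 genes, and annotation came from GENCODE 44 on hg38. The limit given for a count of 0 covers counting error only.

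Genes named were the 10 most abundant, a fixed list of 17 members, and for each comparison up to 3 called members with the largest change, or the largest distance from parent A, in each direction (mean of at least 1 CPM). The readthrough genes and lists were chosen with earlier results of these data known. Alternatives were DESeq2 1.42.0, RLE, exactTest, 2 other count filters, a replicate block, and leaving out each library. Library-size scaling and joint omission of libraries were chosen after seeing the data.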

Additional observations from a re-analysis of the deposited data

Results flagged for a closer look

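For the named readthrough genes below, the effect of a plasmid differed between HEK293T and A549 by edgeR's interaction test at an adjusted p under 0.05, which is why they are listed. Each number is HEK293T minus A549, and part of it can be an uncalled change in A549. With snaR-A, HNRNPUL2-BSCL2 had 0.50 in HEK293T and -0.53 in A549, whereas ABCF2-H2BK1 had 0.32 and -0.11. With eGFP, ISY1-RAB43 had -0.09 in HEK293T and 0.31 in A549. The effect of snaR-A against scramble was greater in HEK293T for ABCF2-H2BK1 (0.44), ANKHD1-EIF4EBP3 (0.77), HNRNPUL2-BSCL2 (1.04), INO80B-WBP1 (1.81), PDXDC2P-NPIPB14P (0.58), SPECC1L-ADORA2A (1.56) and TIMM23B-AGAP6 (0.57), as differences of log2 fold changes. The effect of snaR-A against scramble was smaller or more negative in HEK293T for RPL17-C18orf32 (-0.45), TMED7-TICAM2 (-0.33) and ZNF286A-TBC1D26 (-1.18), as differences of log2 fold changes. The effect of eGFP against scramble was greater in HEK293T for ABCF2-H2BK1 (0.34), ANKHD1-EIF4EBP3 (0.84), ARHGAP11A-SCG5 (1.65), INO80B-WBP1 (3.46), PDXDC2P-NPIPB14P (0.70), POC1B-GALNT4 (0.96), RBM14-RBM4 (0.86), SENP3-EIF4A1 (0.86), SLX1B-SULT1A4 (0.59), SPECC1L-ADORA2A (2.42), TIMM23B-AGAP6 (1.27) and ZNF8-ERVK3-1 (0.69), as differences of log2 fold changes. The effect of eGFP against scramble was smaller or more negative in HEK293T for CHURC1-FNTB (-1.17), ISY1-RAB43 (-0.46), MSANTD3-TMEFF1 (-0.53), RPL17-C18orf32 (-0.47), ZHX1-C8orf76 (-0.82) and ZNF286A-TBC1D26 (-1.66), as differences of log2 fold changes. The effect of SF3B2 against eGFP was smaller or more negative in HEK293T for PDXDC2P-NPIPB14P (-0.40), TIMM23B-AGAP6 (-0.71) and TMED7-TICAM2 (-0.32), as differences of log2 fold changes. The eGFP and snaR-A comparisons share the scramble libraries, and the eGFP and SF3B2 comparisons share the eGFP libraries, so the lists are not independent. Without HEK293T eGFP replicate 3, 15 of the 18 eGFP differences passed, and CHURC1-FNTB, ISY1-RAB43 and SPECC1L-ADORA2A did not. Without A549 snaR-A replicate 3, 8 of the 10 snaR-A differences passed, and INO80B-WBP1 and TIMM23B-AGAP6 did not. Without A549 scramble replicate 3 all 10 and all 18 passed, and the 3 for SF3B2 passed without HEK293T eGFP replicate 3 and without HEK293T SF3B2 replicate 3.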

How the results depend on the processing

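Counts of readthrough genes called in the line comparison and in the snaR-A and eGFP comparisons of HEK293T stayed within 1.5 times under all alternatives run. The other counts were small and moved, and the cause was not tested. For SF3B2 against eGFP in HEK293T, 1 higher and 1 lower became 6 and 13 (DESeq2, with 4.75% and 4.44% of all genes), 2 and 5 (exactTest, with 1.21% and 1.64%), 0 lower (RLE, 0.283%), and 3 lower (a minimum of 10 counts per library, 0.783%, no filter, 0.424%, or library size alone, 1.27%). Leaving out libraries gave 0 to 4 higher and 0 to 14 lower (all genes 0.00855% to 5.84% and 0.00% to 5.69%). For SF3B2 against eGFP in A549, 2 higher and 1 lower became 11 and 3 (DESeq2, with 6.68% and 6.59% of all genes), 1 higher (RLE, 3.22%, or library size alone, 2.03%), 4 higher (minimum of 10 counts, with 4.39%) and 2 lower (exactTest, with 4.09%), with 1 to 6 and 0 to 3 when a library was left out (all genes 0.504% to 8.41% and 1.36% to 7.47%). In A549, leaving out a library gave 0 to 1 higher for snaR-A (all genes 0.00450% to 0.695%) and 0 to 1 lower for eGFP (0.00908% to 0.0951%). For the interactions, DESeq2 gave 9 lower for snaR-A (10.2% of all genes), 12 lower for eGFP (18.4%), and 4 higher and 14 lower for SF3B2 (9.08% and 7.13%). The SF3B2 interaction also gave 0 higher and 3 lower without a filter (1.36% and 1.15%), 9 lower with a minimum of 10 counts (5.84%), and 0 higher with library size alone (1.22%), which gave 2 lower for eGFP (9.03%). Leaving out a library gave 6 to 11 higher and 1 to 7 lower for snaR-A (all genes 2.37% to 8.04% and 2.74% to 8.90%), 11 to 21 and 4 to 8 for eGFP (8.28% to 12.1% and 10.9% to 16.0%), and 0 to 3 and 2 to 18 for SF3B2 (1.01% to 9.24% and 0.728% to 8.91%).

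Of 96 calls of named genes, 77 were kept under all alternatives run. The line comparison of ABCF2-H2BK1 (0.023), ARPIN-AP3S2 (0.27) and SLX1B-SULT1A4 (0.33) changed sign with library size alone, which moves every fold change between the lines.

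Same-numbered replicates share only a number: correlations of their residuals lay between -0.348 and 0.267. With the replicate block, 0 readthrough genes were higher and 0 lower for SF3B2 against eGFP in HEK293T (1 and 0 of 22623 genes in all), and 0 higher and 2 lower in the SF3B2 interaction (1.08% and 0.724% of all genes); elsewhere the counts stayed within 1.5 times. Low levels limit precision: 68 of the 126 genes averaged under 1 CPM, and 16 were tested in no comparison.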
